A study of Mus musculus with 7 samples.

Results

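CTCF and cohesin binding in female mouse liver was examined at 8 genes that encode hepatocyte transcription factors, Hnf4a, Foxa1, Foxa2, Foxa3, Cebpa, Cebpb, Onecut1 and Prox1, out of 22380 protein-coding genes of the mm9 annotation. Each gene span was extended by 50 kb on either side, and every peak of the merged CTCF and Rad21 lists that overlapped this window was taken. The 8 windows held 105 of the 68667 CTCF peaks and 108 of the 68656 Rad21 peaks. The lists came from ChIP-seq of liver nuclei of female Crl:CD1(ICR) mice aged 8 weeks, with 4 libraries immunoprecipitated for CTCF and 3 for Rad21, a subunit of cohesin. The labels name no transgene or treatment. Each antibody has 1 merged peak list, so no value below has a replicate error and no difference between conditions could be tested. Confidence intervals on shares are 95% Wilson intervals and cover counting error only.

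The 8 factors form much of the regulatory core of the hepatocyte. HNF4A is a nuclear receptor that drives most hepatocyte-specific genes, FOXA1, FOXA2 and FOXA3 are forkhead factors able to bind nucleosomal DNA, C/EBPα and C/EBPβ are leucine zipper factors of liver metabolism and the acute phase response, ONECUT1 (HNF6) is a cut-homeodomain factor of liver and biliary development, and PROX1 is a homeodomain protein of hepatoblasts and lymphatic endothelium. CTCF binds a long directional motif and can hold cohesin as it extrudes chromatin loops, and loop anchors most often carry motifs that point towards each other. Cohesin found away from CTCF has been described at enhancers and promoters bound by tissue-specific factors. Peaks that overlapped a peak of the other list by at least 1 bp were classed as shared (cohesin and CTCF, CAC). The other Rad21 peaks were classed as cohesin only (cohesin-non-CTCF, CNC), and the other CTCF peaks as CTCF only (Lone CTCF).

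The sequences on which the flanking peaks were called and oriented are shown for 5 genes. At these, the nearest motif-bearing shared peaks wholly outside the gene span faced the gene from both sides. Each line gives the 20 bases of the best CTCF match in capitals with 5 bases of mm9 sequence on either side, 5′ to 3′ on the strand of the motif. Upstream and downstream are relative to the gene, and Foxa2, Foxa3 and Prox1 lie on the minus strand.
Foxa2 upstream, chr2:147874372-147874401, minus strand: cctcgCGGCCGACAGGGGGCGCCCTgtcac
Foxa2 downstream, chr2:147834955-147834984, plus strand: accaaAGGCCAGAAGGGGGTGCTGGatcct
Foxa3 upstream, chr7:19642249-19642278, minus strand: acaccCCTCCACAAGAGGGAGCTACtgctt
Foxa3 downstream, chr7:19592022-19592051, plus strand: cgttgTGACCACTAGGTGGTGCCTTttgtc
Cebpa upstream, chr7:35844670-35844699, plus strand: tacagAGGCCAGAAGAGGGCGTCAGatctc
Cebpa downstream, chr7:35954593-35954622, minus strand: tgacaTGCCCGGTAGGTGTCACTGCcagga
Cebpb upstream, chr2:167510816-167510845, plus strand: aggccCTGCCACGAGATGGCAGCATgcaca
Cebpb downstream, chr2:167659284-167659313, minus strand: aggtcAGGCCGGCAGCTGGCGCTGCtccag
Prox1 upstream, chr1:192073559-192073588, minus strand: tatggAGGCCAGAAGATGGCATCAGacacc
Prox1 downstream, chr1:191940051-191940080, plus strand: tacagAGGCCACAAGGGGGAGTTGGattcc

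Cohesin-only peaks rarely held such a match. The strongest distal cohesin-only peak near the 8 genes, downstream of Onecut1, is shown as the 201 bases around its summit. It is printed in lower case throughout, because none of the 4 short factor strings defined below was found in it.
Onecut1 distal peak, chr9:74777833-74778033, plus strand: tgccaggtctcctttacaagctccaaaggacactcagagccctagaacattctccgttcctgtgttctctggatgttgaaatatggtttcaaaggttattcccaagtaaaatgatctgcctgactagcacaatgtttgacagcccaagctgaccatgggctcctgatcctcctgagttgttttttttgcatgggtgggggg

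The cohesin-only peak at the downstream Hnf4a promoter had its summit in a coding exon. The line starts at the later of 2 annotated translation starts in this exon and runs into the intron, with the 88 coding bases in capitals.
Hnf4a downstream promoter, chr2:163373068-163373234, plus strand: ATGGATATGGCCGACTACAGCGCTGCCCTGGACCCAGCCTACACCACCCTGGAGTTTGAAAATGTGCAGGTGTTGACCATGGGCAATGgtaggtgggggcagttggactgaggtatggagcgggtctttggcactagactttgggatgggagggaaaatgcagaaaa

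The liver identity of the chromatin was checked with 6 hepatocyte marker genes, Alb, Apoa1, Apob, Cps1, Fgb and Tat. Peak lists hold no RNA, so only the binding near these genes could be examined. All 6 windows held distal cohesin-only peaks, with 6 each at Alb and Apoa1, 5 at Apob and 4 each at Cps1, Fgb and Tat. At least 1 such peak was present near 44.8% of all protein-coding genes. Liver nuclei are a mixture of hepatocytes and other cells, and a weaker peak from fewer bound cells cannot be told apart from one with less binding per cell.

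Promoter binding was the rule among the 8 genes, and Foxa2 was the exception. A Rad21 peak overlapped the 1000 bp on either side of an annotated start site at 7 of 8 genes, compared with 53.3% of all protein-coding genes, and a CTCF peak did so at 7 of 8, compared with 53.9%. The same 7 genes had a shared promoter peak, compared with 49.5% of all genes. In 2 comparison lists described below, 14 of 17 other hepatocyte factor genes and 2 of 18 factor genes of other lineages had one. A cohesin-only promoter peak was called at 8 of these 17 and 2 of these 18. A cohesin-only promoter peak was called at 2 genes (Hnf4a and Prox1, background 11.8%) and a CTCF-only promoter peak at 2 (Hnf4a and Onecut1, background 10.7%). The background contains genes that are silent in liver, and genes with several annotated start sites, such as Hnf4a with 7, had more sequence in which a peak could fall.

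The Foxa3 promoter had the strongest binding of both factors. Its CTCF peak (chr7:19608648-19609245) had a fold enrichment of 18.5 over background at the summit, 150 bp upstream of the start site, and its Rad21 peak had one of 17.7. These values lay at percentile 88.02 of the CTCF list and percentile 92.9 of the Rad21 list, in that order. Fold enrichments of the lists come from different antibodies, so they were ranked within each list and not compared across factors.

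Foxa1 had a shared peak in its intron 947 bp inside the gene (chr12:58645943-58646503). CTCF fold enrichment was 9.08 and Rad21 fold enrichment 5.86 there. This peak counted as a promoter peak at 1000 bp but not at 500 bp.

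Foxa2, whose product acts with FOXA1 in the specification of the liver, had no promoter peak of either factor by this definition. A strong shared peak stood 1443 bp beyond the upstream end of the gene (chr2:147874149-147874829). Its CTCF fold enrichment was 15.2 (80.4th percentile) and its Rad21 fold enrichment 11.6 (82.2nd percentile). The 3 FOXA genes therefore each had a shared peak between 150 and 1709 bp from their nearest start site, but on different sides of it.

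At both C/EBP genes the promoter peak was strong for CTCF and weaker for Rad21 within its list. The CTCF peak at Cebpa (chr7:35903851-35904497) had a fold enrichment of 13.0, at percentile 75.05, and the Rad21 peak there had 2.90, at percentile 8.65. A further shared peak 1083 bp upstream was enriched 5.89-fold for CTCF and 2.44-fold for Rad21. At Cebpb the promoter CTCF peak (chr2:167513635-167514698) reached 11.3 and the Rad21 peak 4.53. Cebpb also had a shared peak 3.39 kb upstream in which the order of the ranks was turned, at 12.8-fold for Rad21 (84.7th percentile) but 6.99-fold for CTCF (55.3rd percentile). The intron around Cebpb that holds these peaks is annotated to Tmem189.

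At Onecut1 and Prox1 the promoter Rad21 peaks all lay below percentile 10 of their list. Onecut1 carried shared peaks at both of its annotated start sites. The outer one, in a coding exon, was enriched 2.62-fold for CTCF and 2.77-fold for Rad21, and the inner one (chr9:74714283-74714678) 6.86-fold and 2.93-fold. A CTCF-only peak of 2.43 lay 367 bp upstream of the outer start site. The Prox1 start site had a shared peak, enriched 2.68-fold for CTCF and 2.14-fold for Rad21, at the 3.29th and 0.350th percentile of their lists. A cohesin-only peak of 2.42 lay 596 bp inside the gene.

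Hnf4a has alternative promoters, with Rad21 peaks of similar fold enrichment at both and an overlapping CTCF peak called at 1 of them. The upstream promoter is used mainly outside the adult liver, and the downstream promoter is the main one in adult hepatocytes. At the upstream start site the CTCF peak (chr2:163332505-163332811) was enriched 4.21-fold, and the Rad21 peak over it 3.31-fold. A CTCF-only peak of 2.92 lay 902 bp inside. At the downstream promoter the Rad21 peak (chr2:163372560-163373446) had a fold enrichment of 3.38, with its summit 210 bp after a start site, and no CTCF peak overlapped it. Its best CTCF match scored 0.18 bits, against a threshold of 13.8 bits. A second CTCF-only peak of 2.86 followed at a start site further inside the gene.

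Between these promoters stood 4 shared intronic peaks, of which 3 carried a CTCF motif. The CTCF fold enrichments of these 3 were 12.05, 10.2 and 13.9, at 19.0, 25.3 and 28.3 kb inside the gene. Each was above the 4.21 of the CTCF peak at the upstream start site. The Rad21 peak at the downstream promoter had no overlapping CTCF peak to compare. The fourth, nearest the downstream promoter, was enriched 5.19-fold for CTCF, with a best match of 12.4 bits. Of the motif-bearing peaks, the one nearest the upstream promoter had its motif on the minus strand, and the other 2 had theirs on the plus strand, pointing towards the downstream promoter. Hnf4a held 17 shared peaks of each list in its window, which was the longest of the 8, and 9 of the 17 CTCF peaks carried a motif.

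With a minimum fold enrichment of 5 applied to both lists, shared promoter peaks were left at 2 of 8 genes (Foxa1 and Foxa3, compared with 26% of all genes). When a promoter reached 2500 bp to either side, all 8 genes had one, compared with 54.8%.

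**Figure D1:**
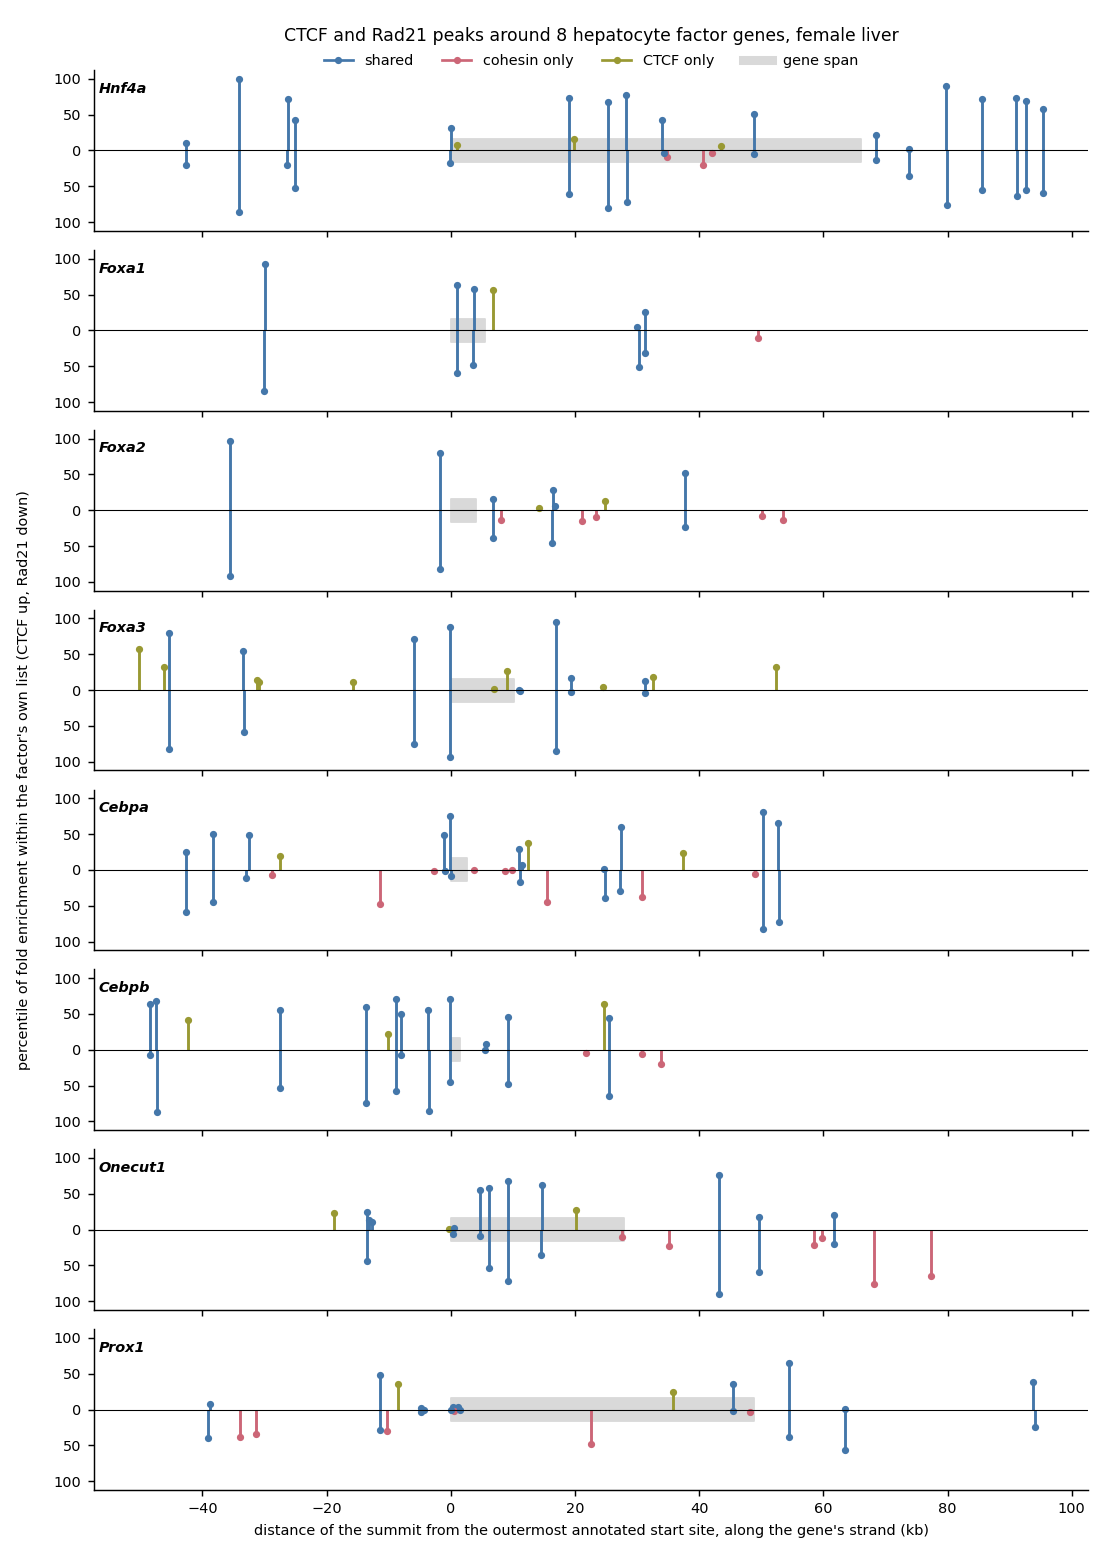
CTCF peaks (upward lines) and Rad21 peaks (downward lines) in the window of each gene, by distance of the summit from the outermost annotated start site along the gene's strand in kb. Line length is the percentile of fold enrichment within the factor's own list, colours give the class and grey boxes the gene span. At Foxa3 no line is cohesin only, and at Cebpa 9 are.

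Distal cohesin-only peaks were found near 7 of the 8 genes, compared with 44.8% of all protein-coding genes. A peak was called distal where it did not overlap the 1000 bp around any protein-coding start site. The windows held 31 such peaks. Cebpa had 9, Onecut1 had 6, Foxa2 and Prox1 had 5 each, Cebpb had 3, Hnf4a had 2, Foxa1 had 1 and Foxa3 had none. Per 100 kb of window the median over the 8 genes was 3.16, whereas the median over all protein-coding genes was 0 and their 95th percentile 3.12. Rad21 peaks of any class were also denser in these windows, with a median of 11.2 per 100 kb compared with 4.72 over all genes. With stricter peaks the median density of distal cohesin-only peaks was lower, at 0.954 with a minimum −log10 q of 10 and 0.336 with a minimum fold enrichment of 5. Of the 31 peaks themselves 12 reached the former minimum, and 2, both at Onecut1, reached the latter, while further peaks entered the class because their CTCF partner was removed. Neighbouring genes share peaks, so these percentiles describe the annotation and are not a test.

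Cebpa, whose product is needed for the expression of many metabolic genes in hepatocytes, stood at the upper end. Its density of 8.77 per 100 kb was reached by only 7 of 22380 genes, itself included (99.97th percentile). The density was 4.80 at Foxa2 (98.9th percentile), 4.69 at Onecut1 (98.7th), 3.36 at Prox1 (95.6th) and 2.96 at Cebpb (94.3rd). Hnf4a, at 1.204 (76.9th), and Foxa1, at 0.95 (71.5th), were closer to the bulk of genes. Cebpa, Foxa2, Onecut1 and Prox1 had no other protein-coding gene in their windows, while Foxa3 had 7.

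**Figure D2:**
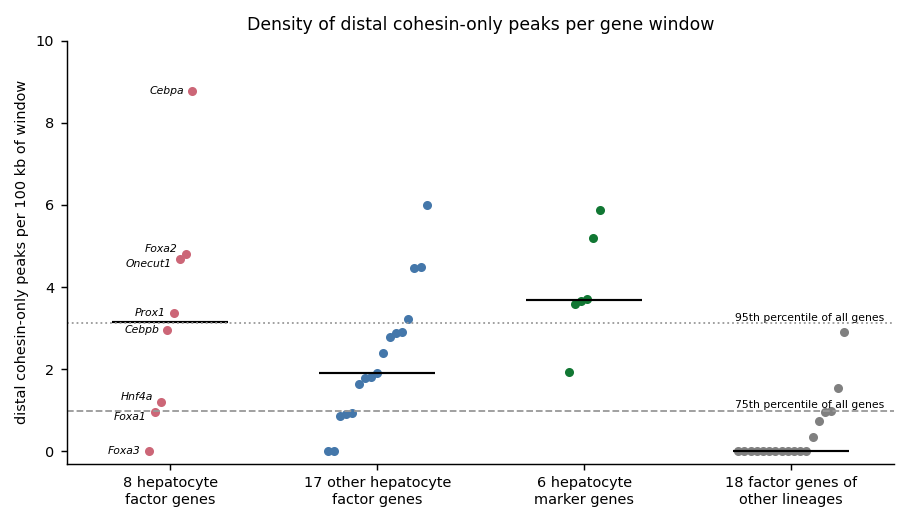
Distal cohesin-only peaks per 100 kb of window, with 1 point for each gene and a bar at the median of each list. Dashed and dotted lines mark the 75th (0.99) and 95th (3.12) percentile of all protein-coding genes. Cebpa is the highest point at 8.77, and 6 of the 18 factor genes of other lineages are above 0.

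A list of 18 further hepatocyte factor genes gave a lower median density of 1.90 per 100 kb over the 17 that are annotated as protein coding, with distal cohesin-only peaks at 15 of 17. Its genes with the most peaks included Nr5a2 with 13 and Nr1h4, the bile acid receptor, with 8. The 6 marker genes had a median of 3.69. In a list of 18 factor genes of other lineages the median was 0, and 6 of 18 had such a peak, among them Lhx2 with 2. The density range of the 8 genes, from 0 at Foxa3 to 8.77 at Cebpa, overlapped the range of each of these lists.

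Distal cohesin-only peaks made up 31 of the 108 Rad21 peaks in the windows (28.7%, interval 21.0 to 37.9%), compared with 22.3% of all Rad21 peaks. Their Rad21 fold enrichment ranged from 2.07 to 8.86 with a median of 3.003 (n = 31), compared with a median of 3.51 over all 15338 distal cohesin-only peaks. The strongest was the Onecut1 peak printed above, 68.2 kb downstream of the outer start site, with a fold enrichment of 8.86 (75.2nd percentile of all Rad21 peaks), followed by another Onecut1 peak at 77.3 kb with 6.58. The strongest Prox1 peak, in an intron 22.6 kb inside the gene, had 4.77, and the strongest Cebpa peaks, 11.5 kb upstream and 15.6 kb downstream, had 4.72 and 4.52. The highest values were 3.33 at Cebpb, 3.16 at Foxa2, 2.99 at Foxa1 and 2.94 at Hnf4a.

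Of the 31 distal cohesin-only peaks, 25 lay downstream of the outermost start site and 6 upstream, 3 at Cebpa and 3 at Prox1. Only 50 kb of each window lay upstream, whereas the downstream part held the gene body and 50 kb of 3′ flank. More sequence was thus searched downstream, and the split was not set beside that of other genes. The median distance from the nearest start site of the gene was 28.7 kb (range 1.22 to 72.7 kb), and 20 of 31 lay more than 20 kb away. By annotation 14 were intergenic, 13 lay in a noncoding gene, 5 in the member itself and 1 in another coding gene, with some peaks in 2 of these. Neither distances nor positions were set beside those of all distal cohesin-only peaks, so they describe these windows only. All 5 Foxa2 peaks fell in introns of the noncoding gene 9030622O22Rik, which spans the region downstream of Foxa2. At Prox1 the 3 upstream peaks, with fold enrichments of 3.77, 3.96 and 4.17, fell in introns of the lincRNA Gm17566. All 3 Cebpb peaks fell in introns of the noncoding gene A530013C23Rik. The 9 Cebpa peaks were all intergenic.

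A CTCF motif was present at 1 of the 31 peaks. This was a Cebpb peak 21.8 kb downstream of the start site with a Rad21 fold enrichment of 2.68, whose best match scored 17.2 bits although no CTCF peak was called there. Among all cohesin-only Rad21 peaks on autosomes, 2.79% of 17866 carried a motif, compared with 45.4% of 49362 shared Rad21 peaks. In the 8 windows, 33 of 78 shared CTCF peaks carried one (42.3%), compared with 46.6% of shared CTCF peaks on all autosomes. The share was lowest at Prox1 with 1 of 9 and at Cebpa with 2 of 11, and highest at Foxa3 with 5 of 8.

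Short letter strings for hepatocyte factors were searched within 150 bp of the summits on both strands. These were CAAAGTNCA for HNF4, TGTTTNC for FOXA, TTGCNNAA for C/EBP and ATCAAT for HNF6. FOXA strings occurred in 11 of the 31 peaks (35.5%, interval 21.1 to 53.1%), compared with 32.2% of all 15150 autosomal distal cohesin-only peaks and 25.1% of 28376 windows lying 2000 bp from them without a peak. C/EBP strings occurred in 7 of 31 (22.6%, 11.4 to 39.8%), compared with 19.3% and 11.9%. HNF4 strings occurred in 2 of 31 (6.45%, 1.79 to 20.7%), compared with 5.43% and 1.498%, and HNF6 strings in 3 of 31 (9.68%, 3.35 to 24.9%), compared with 14.7% and 11.5%. Each of the 4 intervals contained the share of all distal cohesin-only peaks, and those for FOXA, C/EBP and HNF6 also contained the share of the surrounding windows. Matches of different strings may overlap. A match describes letters only and is not a bound site.

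The mixture of classes in the windows was close to that of the whole lists. Cohesin-only peaks made up 33 of 108 Rad21 peaks (30.6%, 22.7 to 39.8%), compared with 26.4% of all Rad21 peaks. CTCF-only peaks made up 27 of 105 CTCF peaks (25.7%, 18.3 to 34.8%), compared with 26.3%. The windows differed more among themselves. At Foxa3 all 8 Rad21 peaks were shared and 10 of 18 CTCF peaks were CTCF only. At Cebpa 9 of 19 Rad21 peaks were cohesin only, and at Foxa2 5 of 10 were. The density of CTCF peaks at Foxa3, 16.3 per 100 kb, stood at the 99.1st percentile of all genes, while its density of Rad21 peaks stood at the 70.5th.

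**Figure D3:**
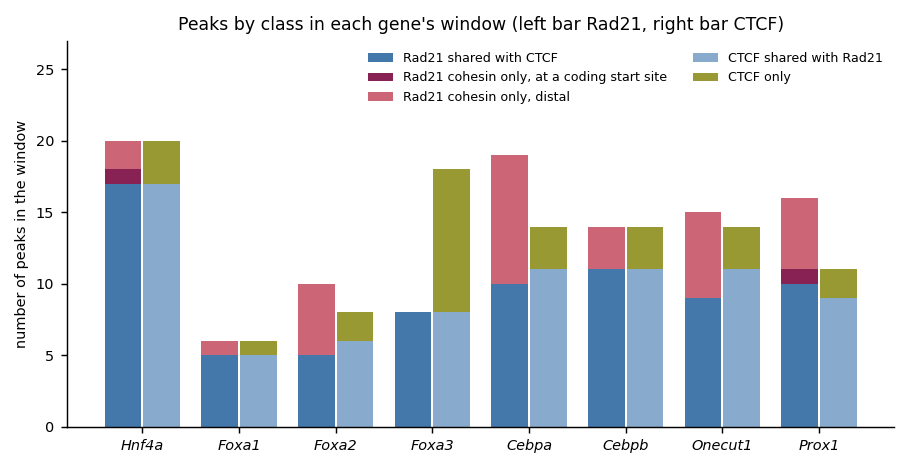
Number of peaks of each class in the window of each gene, with Rad21 peaks in the left bar and CTCF peaks in the right bar. Foxa3 has 10 CTCF-only and no cohesin-only peaks, and Cebpa has 9 cohesin-only and 3 CTCF-only peaks.

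CTCF-only peaks in these windows had a median CTCF fold enrichment of 3.64 (n = 27), compared with 3.85 for all 18054 CTCF-only peaks. The 78 shared CTCF peaks had a median of 6.07, compared with 8.47 for all shared CTCF peaks. A motif was found at 8 of the 27, compared with 39.9% of 17543 CTCF-only peaks on all autosomes. The strongest motif-bearing one near Foxa3, in an intron of Rsph6a 50.2 kb upstream of the start site, had a fold enrichment of 7.34 and a match of 21.8 bits.

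All 8 genes were flanked by a shared peak within 50 kb on both sides, compared with 60.1% of all protein-coding genes. The nearest shared peak beyond the gene span was 1.44 kb upstream at Foxa2, 0.738 kb upstream at Cebpa, 3.39 kb upstream at Cebpb, 4.46 kb upstream at Prox1, 5.71 kb upstream at Foxa3, 12.3 kb upstream at Onecut1, 24.9 kb upstream at Hnf4a and 29.7 kb upstream at Foxa1. On the downstream side the distances ran from 0.645 kb at Foxa3 to 24.4 kb at Foxa1. The median over both sides was 4.93 kb for the 8 genes and 18.2 kb for all genes. Several of these nearest peaks were weak and lacked a CTCF motif, such as the one downstream of Foxa3 with a CTCF fold enrichment of 2.36 and the one upstream of Prox1 with 2.56. A minimum fold enrichment of 5 left 3 of 8 genes with both flanks (Hnf4a, Foxa3 and Cebpb, compared with 45.8% of all genes).

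Considering only shared peaks with a CTCF motif, the nearest motifs on either side pointed towards each other at 5 of 8 genes, compared with 27.3% of all genes. The same held for 11 of 18 factor genes of other lineages, 2 of 17 other hepatocyte factor genes and 2 of 6 marker genes. These genes were Foxa2, Foxa3, Cebpa, Cebpb and Prox1, and their motifs are printed above. The motifs around Foxa1 and Onecut1 pointed away from the gene, an arrangement of 26.1% of all genes. Those around Hnf4a were both on the plus strand, the arrangement of 45.6% of all genes. A looser threshold of 9.26 bits was reached by 5% of background windows. With it, 3 of 8 genes kept motifs that faced each other (Foxa3, Cebpb and Prox1), compared with 27.4% of all genes. The best match was taken within 100 bp of the CTCF summit. At Cebpa a match of 16.6 bits on the minus strand stood near the Rad21 summit of the nearest upstream shared peak, outside that distance. If it were used under the same rule, the motifs around Cebpa would not face each other. The motif of the Cebpa promoter peak, which is nearer the gene, lay on the plus strand.

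The intervals between these motif-bearing peaks differed in size. They measured 39.0 kb at Foxa2, 49.9 kb at Foxa3, 60.9 kb at Foxa1, 105.5 kb at Hnf4a, 109.5 kb at Cebpa, 133.1 kb at Prox1, 148.0 kb at Cebpb and 310.4 kb at Onecut1. At Foxa2 the upstream boundary was the strong shared peak beside the promoter, and the downstream one, 33.5 kb away, had a CTCF fold enrichment of 6.35. At Foxa3 the downstream peak 6.39 kb from the gene, in the annotated UTR of Irf2bp1, had the higher CTCF fold enrichment of 22.0 and the upstream peak, in an intron of Rsph6a, had 6.71. At Cebpa the downstream peak had 15.1 and the upstream peak 4.68, and the latter lay 59.5 kb away, outside the 50 kb window.

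Of the distal cohesin-only peaks 24 of 31 lay within these intervals, which covered 62.8% of the sequence of the 8 windows. All 9 at Cebpa did so, where the interval covered 97.5% of the window and passed over the motif-bearing promoter peak. With that promoter peak as the boundary, the 3 peaks upstream of the Cebpa start site would lie outside. All 5 at Prox1 (70.0% of the window), all 3 at Cebpb (54.1%) and both at Hnf4a (63.5%) lay within as well. Only 2 of 6 at Onecut1 did, and its peaks of highest fold enrichment, at 68.2 and 77.3 kb, lay beyond the strong shared peak 14.97 kb downstream of the gene (CTCF fold enrichment 13.5, Rad21 15.96). At Foxa2 3 of 5 lay within, and the single Foxa1 peak, which overlapped the annotated UTR of Mipol1, lay outside. The intervals depend on the motif threshold and on passing over promoter peaks that overlap the gene span, as at Foxa3, Cebpa and Cebpb. They are not measured loops or domains.

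**Figure D4:**
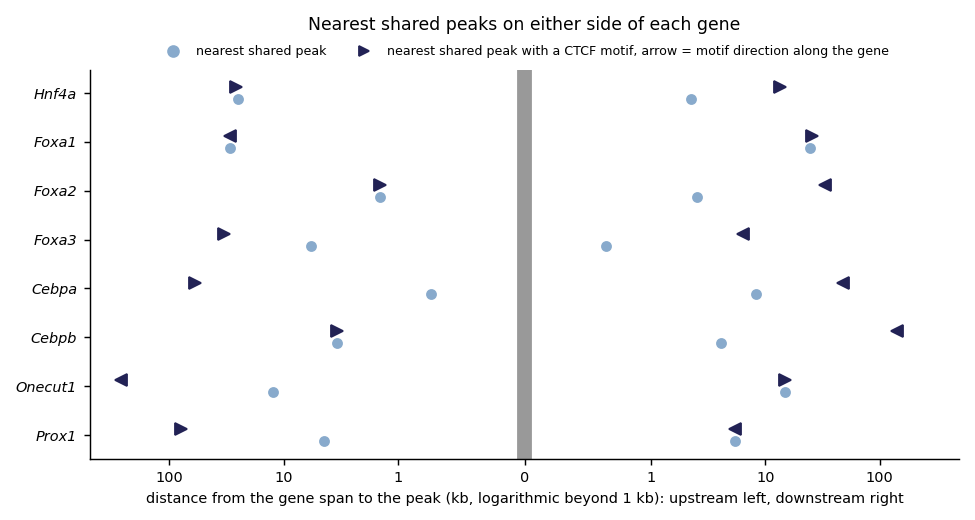
Distance from each gene span (grey bar at 0) to the nearest shared peak (circles) and the nearest shared peak with a CTCF motif (triangles) in kb, on an axis that is linear to 1 kb and logarithmic beyond, with upstream on the left. Peaks that overlap the gene span are left out. Triangles point in the direction of the motif along the gene. They face each other at Foxa2, Foxa3, Cebpa, Cebpb and Prox1, and point outwards at Foxa1 and Onecut1.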

How the data were processed

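Female liver ChIP-seq libraries were sequenced and, per the authors, reads were mapped to mm9 with Bowtie2 and peaks were called with MACS2, with blacklisted regions removed. The deposited lists are named as merged, and their peak names come from 1 run each, from which pooling of the libraries was inferred. The deposited lists give each peak a score, a fold enrichment (ratio) at the summit, a −log10 p-value and −log10 q-value, and a summit offset in bp. Read totals were not used here, and the lack of a peak does not show a lack of binding. Fold enrichment, −log10 q and summits were used here. No columns of single libraries were used.

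Peaks were compared with the GENCODE genes and genome sequence of the same build, and 0 peaks lay beyond a chromosome end. Classes, windows and promoters were computed in Python 3.11.15 with pandas 2.3.3 and pysam 0.24.0, and intervals with scipy 1.17.1. A 20-bp CTCF matrix (consensus TGGCCACCAGGGGGCGCCAG) was learned from 1000 CTCF peaks on odd-numbered autosomes outside the windows, and a motif was called within 100 bp of the summit at 13.8 bits, exceeded in 1% of 122535 peak-free windows. Overlap and motif steps were tested on simulated data. Members and lists were chosen with earlier results of these data known. All members, their promoter peaks, strongest distal cohesin-only peaks and nearest shared peaks were named by rule, together with the leading genes of the other lists, while intronic Hnf4a peaks and CTCF-only or weaker cohesin-only peaks given singly were named after their values were seen. Spi1 was matched as Sfpi1, and Cebpd, annotated as a pseudogene, was not analysed here. Some genes and sequences that the naming rule covers are not reported here. The authors' minimum for peaks was kept, and alternatives are given at the end.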

Additional observations from a re-analysis of the deposited data

How the results depend on the processing

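Of 55 member counts recomputed under an alternative, 41 stayed within 1.5 times the value reported and 14 did not. The setting that moved the most was a minimum fold enrichment of 5. Shares of all protein-coding genes under the same setting are given in brackets. It gave Rad21 promoter peaks at 2 genes (31%), shared promoter peaks at 2 (26%) and cohesin-only promoter peaks at 0 (5.86%). Distal cohesin-only peaks were left at 4 genes (17.1%) with 6 peaks in all, and shared peaks on both sides at 3 genes (45.8%). A minimum −log10 q of 10 gave cohesin-only promoter peaks at 1 gene (7.44%), CTCF-only promoter peaks at 1 gene (12.9%) and 20 distal cohesin-only peaks. These minimums were set on both lists, so a peak whose partner was removed changed class. Of the 31 distal cohesin-only peaks reported, 2 at 1 gene reached the fold enrichment minimum and 12 at 4 genes the −log10 q minimum. None of the 3 CTCF-only promoter peaks reached either. When shared peaks needed summits within 100 bp, cohesin-only promoter peaks were called at 4 genes (28.1%) and CTCF-only promoter peaks at 4 (27.2%). Windows of 25 kb and 100 kb held 17 and 52 distal cohesin-only peaks, and the median density was 2.26 and 2.94 per 100 kb. It was 0.954 with the minimum −log10 q and 0.336 with the minimum fold enrichment. The 5% motif threshold left 3 genes with convergent motifs (27.4%). The distal cohesin-only density of Cebpa was at percentile 95.8 with the fold enrichment minimum, where none of its 9 reported peaks was kept, and between 99.7 and 99.98 under the other alternatives. No paired analysis was possible because libraries were pooled into 1 list per antibody. For the same reason no library could be left out.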
